A study of Mus musculus with 6 samples.

Results

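The genes described here are 10 transcripts of the JAK-STAT3 pathway and its feedback loop, chosen by symbol from the deposited count table. They are the receptors Il6ra, Il6st and Osmr, the kinases Jak1 and Jak2, the transcription factor Stat3, the inhibitors Socs2, Socs3 and Cish, and the target kinase Pim1. All 10 were present among the 23478 genes of the table, and all 10 passed the filter on low counts that left 14477 genes for testing. RNA had been sequenced from alveolar type 2 (AT2) cells, the lung epithelial cells that make and secrete surfactant, purified from adult mice by depletion of other cells. The Abca3 cKO group (n = 3 libraries) carried a conditional knockout of Abca3, which encodes the phospholipid transporter of lamellar bodies, and the control group (n = 3 libraries) was labelled only as control. Both groups were of mixed strain background, and both were harvested 6 days after tamoxifen by the series' design, or after 6 days of tamoxifen as the treatment protocol reads. The labels used here name neither the Cre line, the alleles of the controls nor the sex of the mice, and do not say whether every replicate came from its own animal. The p-values therefore reflect the variation among these libraries, part of which may be technical.

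In this pathway a cytokine of the interleukin 6 family binds its own receptor chain, such as IL6RA or OSMR, which signals through the shared chain gp130, the product of Il6st. JAK kinases bound to the receptors phosphorylate STAT3, which enters the nucleus and switches on target genes. Among the targets of STAT proteins are the SOCS genes and Cish, whose proteins act back on receptors and kinases as feedback inhibitors, and Pim1, a serine/threonine kinase gene that promotes cell survival. STAT3 drives acute-phase genes in liver, and in lung epithelium it is known for its part in protection from injury. Cish and Socs2 are classical targets of STAT5, and Socs3 of STAT3.

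STAT proteins bind DNA at a site of the form TTCNNNGAA, which reads the same on both strands. The windows of 250 bases before to 50 bases after the annotated gene start are shown for the feedback and target genes whose 2 groups did not overlap in level, Socs3, Cish and Pim1, with each TTCNNNGAA in capitals (RefSeq, GRCm38.p6, 5′ to 3′ on the gene's strand). The window of Pim1 at its upstream start is the one shown, and its other window held no match either.
Socs3, chr11:117969317-117969616, minus strand: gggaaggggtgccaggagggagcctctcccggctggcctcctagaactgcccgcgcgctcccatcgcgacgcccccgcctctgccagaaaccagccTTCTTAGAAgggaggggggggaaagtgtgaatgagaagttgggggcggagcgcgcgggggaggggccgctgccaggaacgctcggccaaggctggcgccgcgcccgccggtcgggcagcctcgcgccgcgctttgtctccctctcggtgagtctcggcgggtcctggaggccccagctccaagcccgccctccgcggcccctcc
Cish, chr9:107296409-107296708, plus strand: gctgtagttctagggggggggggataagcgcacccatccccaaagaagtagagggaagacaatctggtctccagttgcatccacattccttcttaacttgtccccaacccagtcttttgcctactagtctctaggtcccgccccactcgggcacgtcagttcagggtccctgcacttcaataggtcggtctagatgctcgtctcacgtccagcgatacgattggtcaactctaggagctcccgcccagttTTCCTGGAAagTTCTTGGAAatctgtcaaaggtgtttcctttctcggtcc
Pim1, chr17:29490535-29490834, plus strand: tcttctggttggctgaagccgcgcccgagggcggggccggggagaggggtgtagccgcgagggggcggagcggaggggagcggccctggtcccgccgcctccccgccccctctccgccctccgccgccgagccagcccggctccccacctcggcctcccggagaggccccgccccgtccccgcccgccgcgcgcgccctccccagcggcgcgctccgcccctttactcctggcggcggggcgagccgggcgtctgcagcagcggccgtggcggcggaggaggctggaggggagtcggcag

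The Socs3 window held 1 match, TTCTTAGAA, whose first base lay 154 bases before the annotated start. The Cish window held 2 matches, TTCCTGGAA at position 1 and TTCTTGGAA at position 12, counted from the RefSeq start. The GENCODE starts of Socs3 and Cish, in the coordinates given below, lie upstream of these whole windows, so the offsets hold for the RefSeq starts only. Windows were found for 9 of the 10 genes, 10 windows in all, and these 2 windows (20%) held the motif, against 7.07% of the 13575 windows of genes tested and 8.3% of all 32851 windows. No window was found for Socs2. The match describes letters only, and no binding was measured in these data.

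Libraries held 23531330 to 26071229 counts, and the 10 genes had between 116 counts (Pim1 in control replicate 3) and 13003 counts (Il6st in control replicate 2) in a library. Levels between groups are given as CPM, read counts scaled to library size with TMM factors. Abca3 stood at 571, 611 and 606 CPM in Abca3 cKO libraries, against 635, 694 and 689 CPM in control libraries (log2 fold change −0.17, edgeR adjusted p = 0.696). The labels do not name the deleted exons, so this level of the whole gene does not check the deletion. Control replicate 2 differed from the other 5 libraries in sex-linked genes, with 0 counts of the Y-linked Ddx3y against 860 to 1379 counts in the others. Xist stood at 2330 CPM there (without TMM factors), against 5.37 to 9.57 CPM in the others. By these genes control replicate 2 read as female and the other 5 libraries as male. Sex was thus not balanced between the groups, and its part was not tested. Control replicate 2 was also the highest of the 3 controls for 8 of the 10 genes, against 33.6% of all genes tested. The 6 AT2 markers summed to 69942 to 80847 CPM in Abca3 cKO libraries and 62747 to 73424 CPM in controls. Of these, 4 (Sftpb, Sftpa1, Slc34a2 and Lamp3) were higher in Abca3 cKO without overlap, against 7.34% of all genes tested. Abca3 was lower without overlap, against 6.76%, and Sftpc was lower with overlap (log2 fold change −0.36). By edgeR none of the 6 was called. DESeq2 called Slc34a2 (adjusted p = 0.0196) and Lamp3 (adjusted p = 0.0384) higher, against 1.49% of its genes in either direction. Markers of other cell types were also present. The 3 club cell markers had sums of similar size, 52125 to 81486 CPM in Abca3 cKO and 63048 to 81465 CPM in controls. Scgb1a1 alone held 4.76% to 7.51% of the counts of a library. The 6 mesenchymal markers summed to 1001 to 1517 CPM in Abca3 cKO libraries, against 719 to 982 CPM in controls. All 6 had positive log2 fold changes and 5 were higher without overlap between groups, against 7.34% of all genes tested, and none passed the test by edgeR. The 8 alveolar type 1 cell markers summed to 1898 to 2692 CPM in Abca3 cKO, against 2499 to 3304 CPM in controls. All 8 had negative log2 fold changes (median −0.34), and 2, Clic5 and Akap5, were lower without overlap, against 6.76% of all genes tested. By edgeR none of the 8 was called, and 3 had an unadjusted p under 0.05, all lower, against 4.16% of all genes tested. DESeq2 called Clic5 (adjusted p = 0.0168) and Akap5 (adjusted p = 0.0111) lower, against 1.49% of its genes in either direction. The 7 macrophage markers in the table summed to 55.3 to 68.8 CPM in Abca3 cKO, against 69.9 to 81.8 CPM in controls, without overlap. Most of that sum was Csf1r, at 31.8 to 51.6 CPM in Abca3 cKO and 37.3 to 67.1 CPM in controls. Cd68, Cd14 and Chil3 ranged from 2.32 to 13.6 CPM in Abca3 cKO and from 0.380 to 16.9 CPM in controls. Each of these 4 tested markers overlapped between groups, and none was called by edgeR. The log2 fold change was positive for Cd14 (0.89) and negative for Csf1r (−0.40), Cd68 (−0.45) and Chil3 (−0.91). Marco and Itgax were at 0.0808 CPM or less in Abca3 cKO and 0.811 CPM or less in controls. The 4 neutrophil markers summed to 7.51 to 12.6 CPM in Abca3 cKO and 7.65 to 12.2 CPM in controls, mostly from Csf3r, with S100a8 at 0 in 5 of the 6 libraries. The part of these other cells in the results below was not tested, and in bulk RNA fewer cells of a type and less RNA per cell cannot be told apart.

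Levels of different genes were compared on the authors' RPKM, which is scaled to gene length. Over the 6 libraries Stat3 averaged 43.5 ± 4.29 RPKM (SD), Socs2 41.5 ± 4.67 RPKM and the gp130 gene Il6st 37.6 ± 2.88 RPKM. The ranges of these 3 genes overlapped, and all lay above Jak1, the fourth, whose 15.4 ± 0.779 RPKM did not overlap Il6st. Socs3 averaged 13.0 ± 4.07 RPKM, Osmr 10.9 ± 2.14 RPKM, Il6ra 8.09 ± 1.32 RPKM, Jak2 7.24 ± 1.19 RPKM and Pim1 4.82 ± 2.07 RPKM. Cish was the lowest at 3.22 ± 0.920 RPKM. From Jak1 downwards each gene overlapped the next in range. By CPM the genes ranged from the 38.9th percentile of tested genes (Pim1) to the 98.5th (Il6st).

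Between Abca3 cKO and control AT2 cells, 1 of the 10 genes passed the test over all genes, Pim1, which rose (1 of 10, against 0.380% of the 14477 genes tested called in either direction). The receptors, kinases and Stat3 showed no call. The feedback inhibitors pointed in different directions, with Socs3 at a higher level and Cish at a lower level in every Abca3 cKO library than in any control, but neither passed the adjusted threshold. Genes were tested with edgeR's quasi-likelihood F test and called at a Benjamini-Hochberg adjusted p under 0.05 over all genes. Each fold change divides Abca3 cKO by control, with a 95% interval. DESeq2 also called Pim1 alone among the 10, and called 1.49% of its genes. At an unadjusted edgeR p under 0.05 there were 5 of the 10 genes, against 9.23% of all genes tested. Of these 4 were higher, against 5.07% of all genes, and 1 was lower, against 4.16%. In 4 of the 10 genes the 2 groups did not overlap (Jak2, Socs3 and Pim1 higher, Cish lower), against 14.1% of all genes tested (7.34% higher and 6.76% lower). The median log2 fold change of the 10 was 0.14, and 0.00 over all genes tested. The 10 genes were chosen with earlier results of these data known, so these counts are no independent evidence for the pathway.

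**Figure D1:**
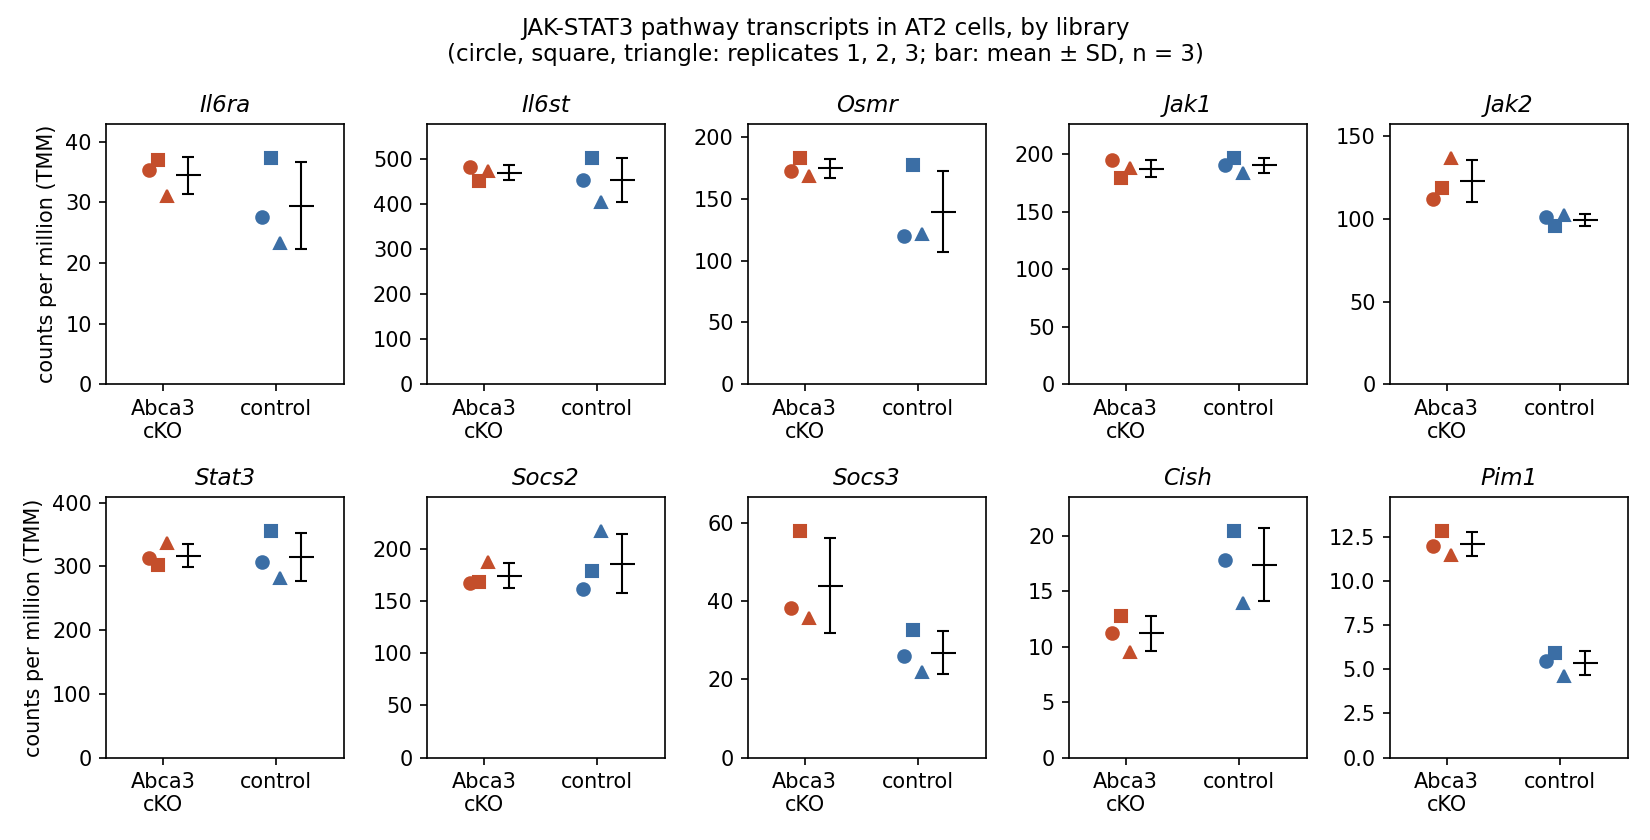
Level of each of the 10 genes (y axis, CPM on TMM-scaled library sizes, from 0) in the 3 Abca3 cKO libraries (left, red) and the 3 control libraries (right, blue); black bars give mean ± SD. Pim1 stands at 11.5 to 12.8 CPM in Abca3 cKO and 4.602 to 5.95 CPM in controls, and the groups of Stat3, Jak1, Il6st and Socs2 overlap.

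Pim1 (chromosome 17, 29490753 to 29496112, plus strand, GRCm38, GENCODE M21) stood at 11.98, 12.8 and 11.5 CPM in the 3 Abca3 cKO libraries, against 5.45, 5.95 and 4.602 CPM in the 3 controls. Every Abca3 cKO library lay well above every control, and the spread within each group was small. The means were 12.1 ± 0.674 CPM in Abca3 cKO and 5.33 ± 0.679 CPM in controls (SD, n = 3 each), a 2.27-fold rise with an interval of 1.63 to 3.16-fold (log2 fold change 1.18, SE 0.223, adjusted p = 0.0374 by edgeR). Pim1 ranked 41st by p among the genes tested. The exact two-sided permutation test on log2 CPM gave p = 0.1, the smallest that 3 against 3 libraries allow. The authors' RPKM values showed the same order, at 7.18, 6.64 and 6.21 RPKM in Abca3 cKO, against 2.82, 3.40 and 2.65 RPKM in controls, and limma on these values gave an adjusted p of 0.0234. The call rests on all 6 libraries: leaving out any single library put the adjusted p above the threshold (0.0661 to 0.157 by edgeR over 6 fits), while the log2 fold change stayed between 1.08 and 1.27. With the replicate number as a block the adjusted p was 0.0601 by edgeR. In 488 bases (14.5% of its exon length) Pim1 shares exon sequence with an antisense gene on the opposite strand, Gm26885, and the library kit does not mark strand. Its counts were 116 to 329 per library.

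The call of Pim1 was known when these genes were chosen, so its call is no independent evidence for the pathway. Of its relatives, Pim3 was the more abundant at 15.1 RPKM over the 6 libraries. Pim3 stood at 29.8 ± 5.20 CPM in Abca3 cKO and 32.8 ± 9.23 CPM in controls (adjusted p = 0.911), and Pim2 at 5.63 ± 2.92 CPM in Abca3 cKO and 5.36 ± 2.29 CPM in controls (adjusted p = 0.980, edgeR).

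**Figure D2:**
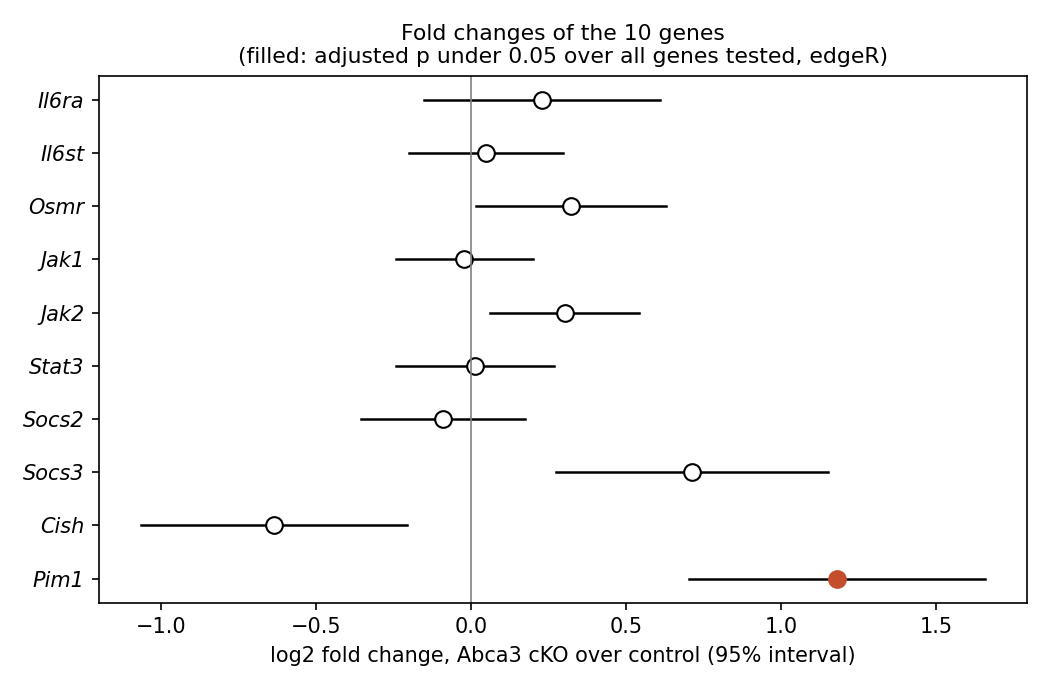
Log2 fold change of each gene, Abca3 cKO over control (x axis), with its 95% interval (line); the filled circle passed adjusted p 0.05 over all genes tested. The interval of Pim1 runs from 0.70 to 1.66 and that of Socs3 from 0.27 to 1.151, while the intervals of Il6ra, Il6st, Jak1, Stat3 and Socs2 include 0.

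Socs3 (chromosome 11, 117966079 to 117970047, minus strand), the inhibitor that binds gp130 and JAK kinases, stood at 38.2, 57.9 and 35.8 CPM in Abca3 cKO libraries, against 25.9, 32.7 and 21.9 CPM in controls. All 3 Abca3 cKO libraries were above all 3 controls, and Abca3 cKO replicate 2 was well above the others. The means were 44.0 ± 12.1 CPM in Abca3 cKO and 26.8 ± 5.46 CPM in controls, a ratio of 1.64 with an interval of 1.21 to 2.22 (log2 fold change 0.71, SE 0.203). The difference did not pass the test over all genes (adjusted p = 0.218 by edgeR, unadjusted p = 0.00384), and DESeq2 gave an adjusted p of 0.0544. Without Abca3 cKO replicate 2 the log2 fold change was 0.46 (adjusted p = 0.517), and without control replicate 2 it was 0.88 (adjusted p = 0.143).

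Cish (chromosome 9, 107296026 to 107302784, plus strand), which encodes the inhibitor CIS of STAT5 signalling, went the other way in level. It stood at 11.2, 12.8 and 9.57 CPM in Abca3 cKO libraries, against 17.9, 20.4 and 13.9 CPM in controls. The highest Abca3 cKO library lay just below the lowest control. The means were 11.2 ± 1.62 CPM in Abca3 cKO and 17.4 ± 3.27 CPM in controls. The log2 fold change was −0.64 (SE 0.200) and did not pass the test over all genes (adjusted p = 0.270 by edgeR, unadjusted p = 0.00670). Without control replicate 2 it was −0.50 (adjusted p = 0.591 by edgeR), and without control replicate 3 it was −0.78 (adjusted p = 0.199 by edgeR). These were the smallest and largest changes over the 6 fits without 1 library. Exons of Cish overlap 2 genes on the opposite strand over 261 and 479 bases, 4.07% and 7.46% of its exon length.

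Socs2 (chromosome 10, 95385362 to 95417180, minus strand), which limits growth hormone signalling, overlapped between groups. It stood at 167, 168 and 187 CPM in Abca3 cKO libraries, against 161, 179 and 217 CPM in controls (log2 fold change −0.09, interval −0.36 to 0.17, adjusted p = 0.899 by edgeR). The highest value was in control replicate 3. Per length, the ratio of Socs3 to Cish RPKM was 5.66, 7.21 and 5.73 in Abca3 cKO libraries, against 2.32, 2.71 and 2.84 in controls, a description of values chosen after they were seen. A separate sheet of the deposited counts lists 29 gene symbols without values or a stated purpose, and of the 10 genes it holds Socs3 and Cish.

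The receptors were expressed in every library. Il6st (chromosome 13, 112464070 to 112510086, plus strand) stood at 483, 451 and 474 CPM in Abca3 cKO libraries, against 454, 502 and 405 CPM in controls. The groups overlapped, with the highest and the lowest library both among the controls, and the interval of the change ran from −12.9% to 22.7% (log2 fold change 0.05, adjusted p = 0.952 by edgeR). Il6ra (chromosome 3, 89864059 to 89913196, minus strand), the interleukin 6 receptor chain, stood at 35.3, 37.0 and 31.1 CPM in Abca3 cKO, against 27.6, 37.3 and 23.3 CPM in controls (log2 fold change 0.23, adjusted p = 0.783). Control replicate 2 was the highest of all 6 libraries for Il6ra. Osmr (chromosome 15, 6813577 to 6874969, minus strand), the oncostatin M receptor chain, stood at 172, 183 and 168 CPM in Abca3 cKO, against 119.95, 177 and 122 CPM in controls. Here too control replicate 2 lay among the Abca3 cKO values while the other 2 controls lay below them. The log2 fold change was 0.32 (SE 0.143, adjusted p = 0.507), and without control replicate 2 it was 0.53 (adjusted p = 0.103 by edgeR). Without control replicate 1 it was 0.22 (adjusted p = 0.832 by edgeR), and without control replicate 3 it was 0.23 (adjusted p = 0.754 by edgeR).

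Of the kinases, Jak1 (chromosome 4, 101152367 to 101265282, minus strand) stood at 195, 179 and 188 CPM in Abca3 cKO libraries, against 191, 197 and 184 CPM in controls. The groups overlapped, and the change was −1.57% with an interval of −15.5% to 14.7% (adjusted p = 0.976 by edgeR). Jak2 (chromosome 19, 29251828 to 29313080, plus strand) stood at 112, 119 and 137 CPM in Abca3 cKO, against 101, 95.4 and 102 CPM in controls. All 3 Abca3 cKO libraries were above all 3 controls, by a mean of 23.2% (interval 4.26% to 45.6%), and the difference did not pass the test over all genes (log2 fold change 0.30, SE 0.112, adjusted p = 0.384 by edgeR). Stat3 (chromosome 11, 100885098 to 100939540, minus strand) stood at 313, 302 and 337 CPM in Abca3 cKO libraries, against 307, 355 and 281 CPM in controls. Both the highest and the lowest library were controls. The change was 0.855% with an interval of −15.4% to 20.2% (adjusted p = 0.987 by edgeR). These are transcript levels, and neither phosphorylation of STAT3 nor protein was measured.

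Other genes of the pathway were read from 8 lists drawn up by the known roles of their members. They held 86 genes, of which 72 were tested; 3 rose and 1 fell, against 0.262% of all genes tested that rose and 0.117% that fell. The 3 that rose were acute-phase genes and the 1 that fell was Myc. No call was made among the ligands, receptors, kinases, other STATs and inhibitors. Over all 72 the median log2 fold change was 0.05, against 0.00 over all genes tested.

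The ligands of gp130 were scarce. Of 10 ligand genes 4 had enough counts to be tested. Ctf1, the cardiotrophin gene, was the most abundant of them at 2.80 RPKM over the 6 libraries, with 4.01 ± 1.35 CPM in Abca3 cKO and 4.12 ± 1.98 CPM in controls (adjusted p = 0.987 by edgeR). Il11 stood at 1.64 ± 0.227 CPM in Abca3 cKO and 2.13 ± 0.646 CPM in controls (adjusted p = 0.885), and Clcf1 at 0.965 ± 0.706 CPM in Abca3 cKO and 0.632 ± 0.422 CPM in controls (adjusted p = 0.897). Il6 itself was below the filter, at 0.0808 to 0.272 CPM in Abca3 cKO libraries and 0.0772 to 0.676 CPM in controls, and Osm and Il27 had 0 counts in all 6 libraries.

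Among the 4 tested genes of the other gp130-family receptors, Lifr was the most abundant at 6.28 RPKM and stood at 139.9 ± 27.8 CPM in Abca3 cKO and 135 ± 23.6 CPM in controls (adjusted p = 0.966 by edgeR). Il11ra1, the interleukin 11 receptor chain, stood at 24.4, 25.3 and 25.3 CPM in Abca3 cKO libraries, against 22.6, 14.6 and 17.1 CPM in controls. The groups did not overlap in CPM, and the difference did not pass over all genes (log2 fold change 0.47, SE 0.181, adjusted p = 0.410 by edgeR). On the authors' RPKM they overlapped, at 3.04, 4.98 and 2.87 RPKM in Abca3 cKO, against 1.68, 2.29 and 4.84 RPKM in controls. Of the 16 tested receptors outside this family that signal through JAK kinases, 9 had positive and 7 negative log2 fold changes, with a median of 0.03. The interferon receptor gene Ifnar2 was the most abundant at 47.2 RPKM, and its log2 fold change was 0.07 (adjusted p = 0.913). Ifngr2 stood at 22.6 ± 2.49 CPM in Abca3 cKO and 31.7 ± 8.53 CPM in controls (adjusted p = 0.441). Csf2rb, the beta chain of the GM-CSF receptor, stood at 11.2 ± 6.25 CPM in Abca3 cKO and 6.81 ± 1.09 CPM in controls (adjusted p = 0.607).

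Of the 8 other JAK and STAT genes, 5 had positive log2 fold changes and the median was 0.13. Stat5a, which acts with Stat5b upstream of Cish, stood at 7.22, 9.27 and 9.21 CPM in Abca3 cKO libraries, against 4.90, 5.75 and 5.24 CPM in controls. The groups did not overlap, and the log2 fold change of 0.69 (SE 0.244) did not pass over all genes (adjusted p = 0.345 by edgeR). Stat5a and Stat3 share 72 bases of exon sequence on opposite strands. Stat6, the most abundant of the 8 at 9.41 RPKM, stood at 83.6 ± 2.33 CPM in Abca3 cKO and 91.3 ± 5.03 CPM in controls (adjusted p = 0.807). Of the 12 tested genes among other SOCS proteins, PIAS proteins and phosphatases, 5 had positive log2 fold changes and the median was −0.06. Pias1 was the most abundant at 14.6 RPKM (log2 fold change 0.10, adjusted p = 0.876). Pias4 stood at 2.77 ± 0.458 CPM in Abca3 cKO and 4.66 ± 0.846 CPM in controls (adjusted p = 0.486), and Ptpn11, the phosphatase SHP2, at 95.6 ± 5.49 CPM in Abca3 cKO and 111 ± 9.04 CPM in controls (adjusted p = 0.621). Socs1 was below the filter, at 0.0844 to 0.323 CPM in Abca3 cKO and 0.0397 to 0.254 CPM in controls.

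**Figure D3:**
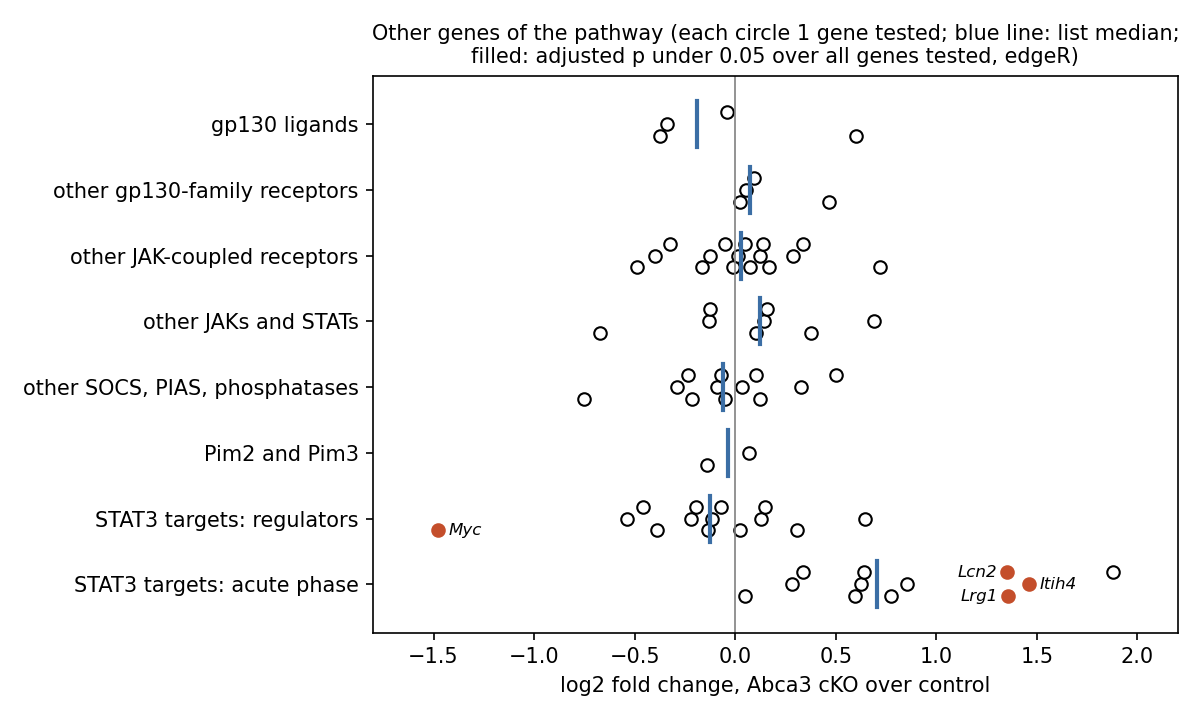
Log2 fold change, Abca3 cKO over control (x axis), of each tested gene in the 8 lists (rows); blue lines are list medians and filled circles passed adjusted p 0.05 over all genes tested. All 12 acute-phase circles lie above 0 with a median of 0.71, and the 14 regulators have a median of −0.13 with Myc lowest.

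Known STAT3 targets were split by what they encode. Of 14 targets that encode regulators of transcription, growth and survival, 1 fell and none rose by edgeR. Over all genes tested 0.117% fell. DESeq2 called 2 of the 14 lower, against 1.49% of its genes in either direction. By edgeR 4 had an unadjusted p under 0.05 (against 9.23% of all genes tested), 1 higher and 3 lower. The median log2 fold change was −0.13. Myc, the growth regulator, stood at 4.26, 4.71 and 7.03 CPM in Abca3 cKO libraries, against 14.5, 20.2 and 9.80 CPM in controls. Its log2 fold change was −1.48 (SE 0.288) with an adjusted p of 0.0434 by edgeR. The groups did not overlap, but the call was lost in 4 of the 6 fits without 1 library (without Abca3 cKO replicate 1 or 2 or control replicate 1 or 2), with adjusted p up to 0.200. It was also lost with the replicate block (adjusted p = 0.106 by edgeR) and on RPKM (adjusted p = 0.0996 by limma). Hif1a, the oxygen-sensing factor, stood at 93.2 ± 5.04 CPM in Abca3 cKO and 128 ± 14.2 CPM in controls (log2 fold change −0.46, adjusted p = 0.129 by edgeR, 0.0361 by DESeq2). Icam1 was the most abundant of the 14 at 103 RPKM (log2 fold change −0.20, adjusted p = 0.681).

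Of 16 acute-phase and secreted STAT3 targets 12 were tested, all with positive log2 fold changes and with a median of 0.71. By edgeR 3 rose and none fell, against 0.262% of all genes tested that rose, and 7 had an unadjusted p under 0.05, all higher, against 5.07% of all genes. DESeq2 called 5 of the 12 higher, against 1.49% of its genes in either direction. Lcn2, Lrg1 and Itih4 had been known to rise when the list was written, so these counts are not independent evidence of a direction. Lcn2, the siderophore-binding lipocalin and the most abundant at 528 RPKM, stood at 991, 959 and 1005 CPM in Abca3 cKO libraries, against 379, 355 and 423 CPM in controls. Lrg1, a secreted glycoprotein gene, stood at 521, 399 and 536 CPM in Abca3 cKO, against 223, 186 and 159.8 CPM in controls. Itih4, an inhibitor family heavy chain gene of plasma, stood at 966, 912 and 1032 CPM in Abca3 cKO, against 381, 271 and 404 CPM in controls. No Abca3 cKO library overlapped a control in these 3 genes, and all 3 kept their call by edgeR in each of the 6 fits without 1 library (adjusted p 0.000390 to 0.00915). The serum amyloid genes Saa1 and Saa2 were below the filter, at no more than 0.0808 CPM in Abca3 cKO and 0.159 CPM in controls.

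Pairs of the 10 genes differed in how closely they followed each other across libraries. Over the 6 libraries the log2 CPM of Il6st and Stat3 had a Pearson r of 0.90, and that of Il6ra and Osmr 0.92, whereas Stat3 with Pim1 had 0.20 and Jak2 with Cish −0.90. These values describe 6 libraries of 2 groups, which share depth and preparation, and carry no test. Control replicate 2 was the highest library for Il6st, Stat3 and Il6ra, and the highest control for Osmr. Its part in these correlations was not tested. The transcripts whose log2 CPM most resembled Stat3 over the 6 libraries were Cdc14a (r = 0.99), Vipas39 (0.99) and D15Ertd621e (0.98). For Socs3 they were Pik3r4 (0.99), Piwil4 (0.99) and Ptplad1 (0.98), and for Pim1 they were Mtss1 (0.99), Nuak2 (0.99) and Pdlim1 (0.99). Among the 9814 genes compared, those with r above 0.95 numbered 21 for Stat3, 20 for Socs3 and 35 for Pim1.

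**Figure D4:**
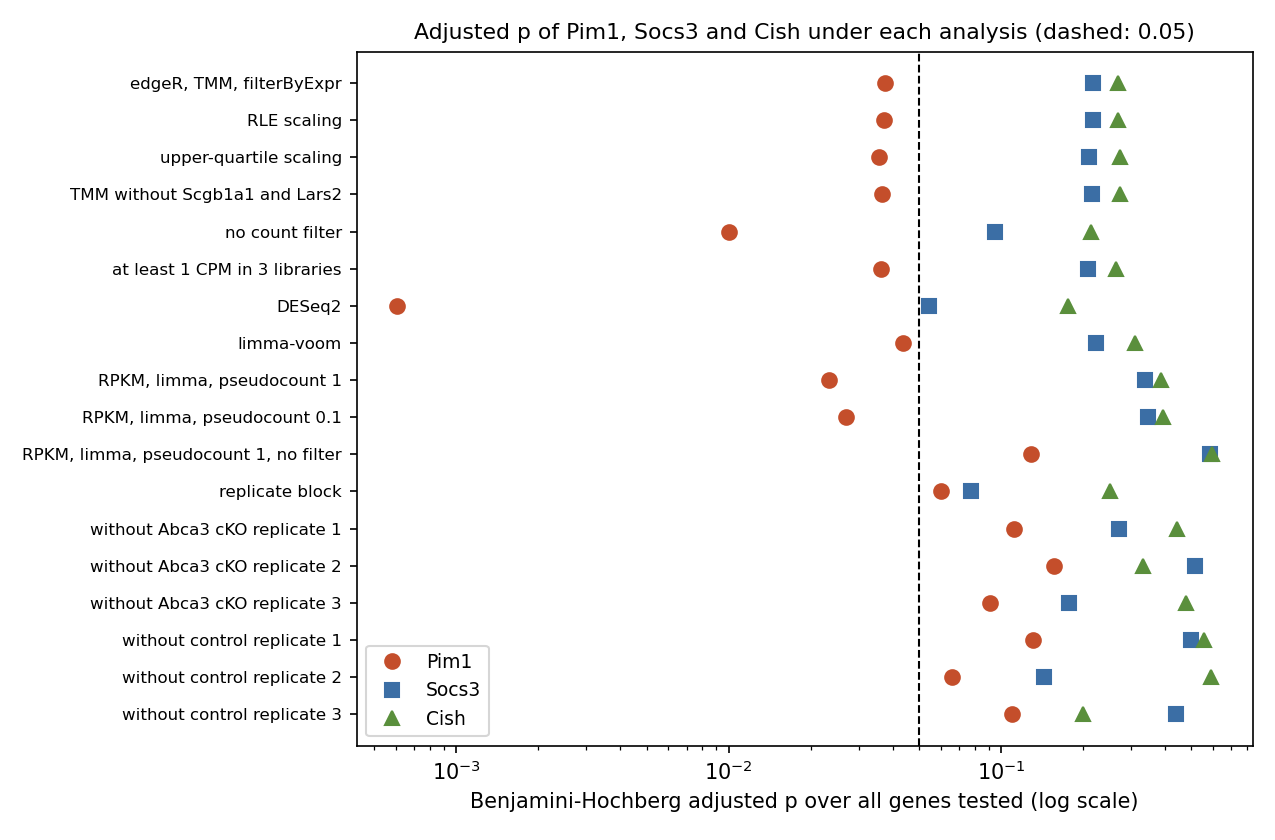
Benjamini-Hochberg adjusted p over all genes tested (x axis, log scale) of Pim1 (circles), Socs3 (squares) and Cish (triangles) under the main analysis and 17 alternatives (rows); the dashed line is 0.05. Pim1 lies below the line in the main analysis and in 9 of the 17 alternatives, and Socs3 and Cish lie above it in all.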

How the data were processed

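The authors deposited whole-number read counts per gene symbol, not normalized, and RPKM values for the same 6 libraries. Per the labels' protocols, amplification used Ovation RNA-Seq System v2, which does not mark strand, and libraries were Nextera XT. Per the submitters' processing notes the build was mm10 (GRCm38) and the tools included DESeq, Cufflinks 2.0.2, TopHat2 2.0.8 and Bowtie2 2.1.0. Which tool counted reads, and on which annotation, is not given in the sources used here. Reads were counted after amplification, so they are not counts of single molecules.

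The main test was edgeR 4.0.16 in R 4.3.3: filterByExpr, TMM scaling, then a two-sided quasi-likelihood F test (glmQLFit, robust) of group alone. Benjamini-Hochberg adjustment ran over the 14477 genes tested, with calls at 0.05. The SE is the log2 fold change divided by the square root of F. Log2 CPM used a prior count of 2. Alternatives were DESeq2 1.42.0, limma 3.58.1 (voom on counts; log2(RPKM + 1) with at least 0.5 RPKM in 3 libraries), other scalings and filters, each library left out and a replicate block. No library repeated another of its group (chi-square per degree of freedom 32.1 to 54.8). Replicate numbers showed no pairing of the libraries (correlation of deviations 0.0762, −0.0304 and −0.0272 for numbers 1, 2 and 3). Pairs of unlike number ran from −0.0816 to 0.105. With 3 libraries per group these values cannot exclude a pairing.

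Members, lists and tests were chosen with earlier results of these data known. All 10 members are named. Of each list, called genes, the 2 smallest p and the highest RPKM are named (1 such gene is not reported here), and a few low genes (Il6, Osm, Il27, Socs1, Saa1, Saa2) were added after their values were seen. Genes resembling Stat3, Socs3 and Pim1 had at least 5 CPM. Coordinates and exon overlaps are from GENCODE M21 on GRCm38, and promoter windows from RefSeq.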

Additional observations from a re-analysis of the deposited data

How the results depend on the processing

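Among the 10 genes no alternative called any gene but Pim1, which was called in 9 of 17. With the replicate block 0 of the 10 and 33 of all genes were called, and with RPKM values without a filter 0 of the 10, 0 pathway genes and 2 of all genes; the cause was not tested. Leaving out 1 library gave 0 of the 10 in each of 6 fits and 21 to 50 of all genes; each uses fewer samples. DESeq2 called 233 genes (1.49% of its genes), 7 of them among the 77 genes of the pathway lists that it tested. Without a count filter edgeR called 132, and limma on filtered RPKM 27 (pseudocount 1) or 28 (pseudocount 0.1), against 55 in the main analysis. The Pim1 log2 fold change ran from 0.96 to 1.27 over all alternatives. Changes near 0 turned sign without any call: Jak1 was 0.0035 on RPKM with pseudocount 1, filtered or not, and 0.0036 with pseudocount 0.1, and over the fits without 1 library the log2 fold change of Jak1 ran from −0.0526 to 0.00733, of Stat3 from −0.0643 to 0.109, of Il6st from −0.0300 to 0.127 and of Socs2 from −0.183 to 0.0319. Other scalings moved the median of all genes by at most 0.0062 (log2). The replicate numbers showed no pairing of the libraries, which 3 libraries per group cannot exclude. Besides that of Pim1, the block changed no call among the 10. Pim1 and Cish had the fewest counts of the 10, so their values carry the most counting error.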
